A study of Mus musculus with 2 samples.

Results

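Slc47a1-positive nuclei of mouse cerebral cortex are described here: nuclei with at least 1 molecule of Slc47a1, the gene of a proton-coupled exporter of organic cations, together with transcripts of fibroblasts of the brain coverings. They numbered 140 of 17501 barcodes, 61 of 8914 in library 1 and 79 of 8587 in library 2. Transcripts were counted with unique molecular identifiers (UMIs), so that each captured RNA molecule counts once. A nucleus was a member if at most 5% of its UMIs came from mitochondrial genes, Slc47a1 had at least 1 UMI, and at least 2 of the 7 genes Bnc2, Adamtsl3, Dcn, Col1a2, Col3a1, Lama2 and Slc6a13 had at least 1 UMI. At most 1 of 6 genes of other cell types could be detected, which were Slc17a7 and Gad2 of neurons, Mog of oligodendrocytes, Csf1r of microglia, Flt1 of endothelium and Acsbg1 of astrocytes. The members were thus chosen by measured counts, and everything below that follows from those counts is a description without a test.

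The study profiled nuclei from frozen cortex of untreated wild-type C57BL/6 mice on the 10x Genomics Chromium droplet platform, to ask how genes of the blood-brain barrier change with age in each cell type. Per the labels, cortices of 3 mice were pooled for each of 2 samples, an old one of 18 months and a young one of 2 months, whereas ages of 18 to 22 and of 2 to 3 months stand in the series text. Both samples sit in 1 matrix, in which the barcodes carry the suffix 1 or 2. Which suffix belongs to which age is not stated, so they are called library 1 and library 2, and ages were not compared. There were no replicates, since each pool counts as 1 sample, and every interval below is a 95% interval that covers counting error only.

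The meninges wrap the brain in layers, with the pia on the brain surface, the arachnoid above it and the dura outermost. Fibroblasts of each layer lay down collagens and laminins and release signals such as retinoic acid and bone morphogenetic proteins, and the arachnoid barrier layer is joined by tight and adherens junctions and carries efflux transporters. Pial fibroblasts continue along larger vessels as perivascular fibroblasts, and tissue taken as cortex can bring some of these layers with it. Meningeal fibroblasts and arachnoid cells are known for carriers of organic ions, amino acids, bicarbonate and vitamins between cerebrospinal fluid and blood.

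Slc47a1 lies on chromosome 11 at chr11:61343401-61378345 on the minus strand (mm10, GENCODE vM21). Its paralogue Slc47a2, which encodes a second organic cation exporter, follows on the same strand at chr11:61301631-61342860, 540 bases downstream of Slc47a1 with 0 annotated genes between them. The RefSeq sequence around the annotated start of Slc47a2 (GRCm38.p6, chr11:61342811-61343110, minus strand) is shown because it fills part of the gap between these neighbours, both of which were detected in the members. Lower case marks the 250 bases before the start and capitals the 50 bases from it.
Slc47a2: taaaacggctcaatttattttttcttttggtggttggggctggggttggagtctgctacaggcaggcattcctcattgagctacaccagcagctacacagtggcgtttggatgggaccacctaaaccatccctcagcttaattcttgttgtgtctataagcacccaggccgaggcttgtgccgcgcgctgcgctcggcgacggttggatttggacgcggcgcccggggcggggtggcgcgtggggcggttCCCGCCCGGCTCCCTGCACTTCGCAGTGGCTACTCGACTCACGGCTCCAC
Counts from the end of a transcript cannot tell a transcript that starts here from one that runs on from Slc47a1, and this was not tested.

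Members made up 0.684% of barcodes in library 1 (exact Clopper-Pearson interval 0.524 to 0.878) and 0.920% in library 2 (0.729 to 1.15). They held 244617 and 360981 UMIs, with a median of 2819 UMIs (1198 to 46030) and 1727 genes per nucleus in library 1 and 3398 UMIs (1904 to 25114) and 1973 genes in library 2. The whole libraries held 58108297 and 60547146 UMIs. The deepest nucleus supplied 18.8% of the member UMIs of library 1 and 6.96% of those of library 2. In library 1 that nucleus alone held 68.5% of the members' UMIs of Adarb2, a gene of inhibitory neurons, so single nuclei with RNA of another type are among the members. Doublet scores from Scrublet were 0.2 or more in 4 members of each library. In library 1 these held 46030, 9027, 8851 and 8175 UMIs, and in library 2 13002, 12740, 10230 and 5211 UMIs. The deepest nucleus of library 1 was among them, with a score of 0.42, so these members weigh on the summed levels. All were kept, and values without them are among the alternatives. The libraries shared 19 barcode sequences, 0 of them among the members.

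Slc47a1 itself ran from 1 to 21 UMIs per member in library 1, with a median of 3, and from 1 to 29 in library 2, with a median of 4. Exactly 1 UMI was found in 6 and 18 members. These nuclei carried 260 of 381 Slc47a1 UMIs in library 1 (68.2%) and 385 of 647 in library 2 (59.5%), a share that the rule itself sets. Just inside the rule, 9 and 8 members had exactly 2 of the 7 fibroblast genes, and 34 and 50 had 1 gene of another type, most often Slc17a7 (25 and 34). Just outside it, 7 and 10 barcodes with Slc47a1 had 1 fibroblast gene, 14 and 15 had 2 genes of other types, and 8 and 6 met all gene conditions but exceeded the mitochondrial limit.

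**Figure D1:**
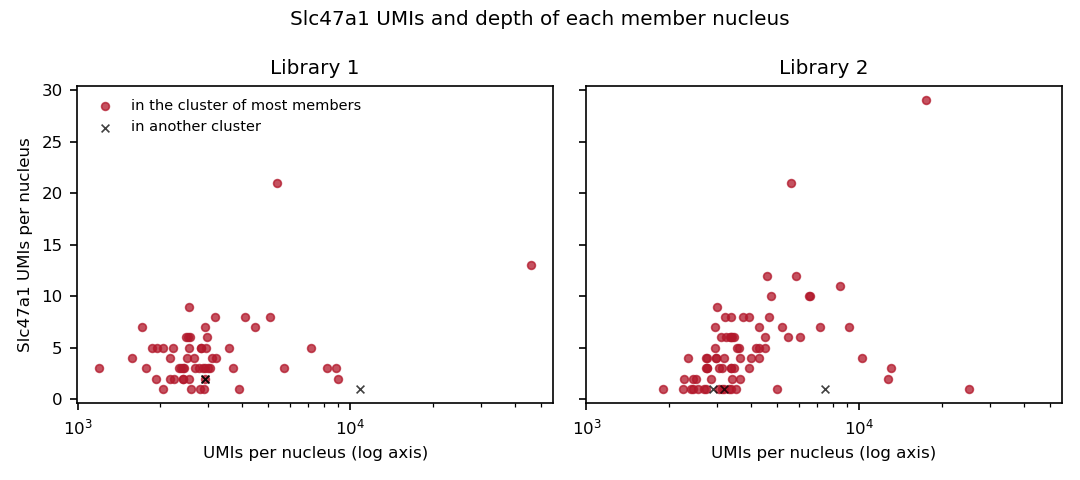
Slc47a1 UMIs (y axis) against total UMIs (x axis, log scale) for each of the 140 member nuclei, by library; circles are nuclei in the Leiden cluster that holds most members and crosses are the 6 members in other clusters. Most points lie under 10 Slc47a1 UMIs and between 1198 and 10817 total UMIs, with single nuclei at 46030 UMIs in library 1 and 25114 in library 2.

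The 3 defining markers were present in most members: Slc47a1 by the rule in every one, Bnc2, a zinc finger transcription factor of fibroblasts, in 60 of 61 and 77 of 79 nuclei, and Adamtsl3, a secreted matrix protein, in 55 of 61 and 69 of 79. Bnc2 stood at 2543 CPM in library 1 (2347 to 2751) and 3684 CPM in library 2 (3489 to 3888) and Adamtsl3 at 993 CPM in library 1 (872 to 1126) and 1233 CPM in library 2 (1121 to 1353), where CPM is a gene's UMIs per 1000000 UMIs summed over the class. The other fibroblast genes of the rule were thinner. Lama2, a laminin chain, was detected in 48 of 61 and 61 of 79 nuclei, Col1a2 in 23 of 61 and 41 of 79, Col3a1 in 11 of 61 and 19 of 79, and the small proteoglycan gene Dcn in 6 of 61 and 34 of 79. Slc6a13, a GABA and taurine carrier of pial and perivascular fibroblasts, was detected in 1 of 61 and 1 of 79 nuclei. Among 10 fibroblast markers outside the rule, Dpt had 0 UMIs in both libraries, Lum had 2 and 1 UMIs, and Pdgfra had 4 and 6 UMIs, whereas Cped1 stood at 1157 and 1158 CPM. These 10 took 0.168% and 0.186% of member UMIs, against 0.0163% and 0.0177% in all other nuclei and 0.485% and 0.530% in the largest cluster that met the rule without Slc47a1, and Cped1 made up most of the members' sum. Detection of the genes of the rule follows from the selection and bears on no label, so the members are called Slc47a1-positive nuclei.

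Marker lists of other cell types were also detected, some at shares near or above those of all other nuclei. The 7 general neuron markers took 1.44% and 1.17% of member UMIs, against 2.90% and 3.09% in all other nuclei, and none of the 7 was at 0. Inhibitory neuron markers took 0.208% and 0.0734% against 0.199% and 0.185%, the library 1 value including the deepest nucleus, and excitatory markers 0.109% and 0.0961% against 0.191% and 0.192%. Astrocyte markers took 0.107% and 0.160% against 0.112% and 0.139%, and oligodendrocyte markers 0.0638% and 0.0942% against 0.0645% and 0.0848%. Most of the members' astrocyte sum was Slc4a4, a bicarbonate carrier gene, at 597 and 853 CPM. Of 10 endothelial markers, Cldn5, Ly6c1 and Ptprb were at 0 in library 1 and none in library 2. Their sum, 0.0343% and 0.0593%, was above the 0.0126% and 0.0283% of all other nuclei. Abcb1a is 1 of these 10, and without it the sums were 0.0102% and 0.0258% against 0.0113% and 0.0254%. Mural markers summed to 0.00654% and 0.00997% with 5 and 2 of 10 at 0, microglial markers to 0.00368% and 0.00942% with 4 and 2 of 8 at 0, and macrophage markers to 0.00531% and 0.00277% with 4 and 3 of 7 at 0, the last above the 0.000882% and 0.00138% of all other nuclei. Choroid plexus markers summed to 0.0143% and 0.00748%, with Otx2 and Prlr at 0 in both libraries. How far such RNA adds to the levels below was not tested.

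**Figure D2:**
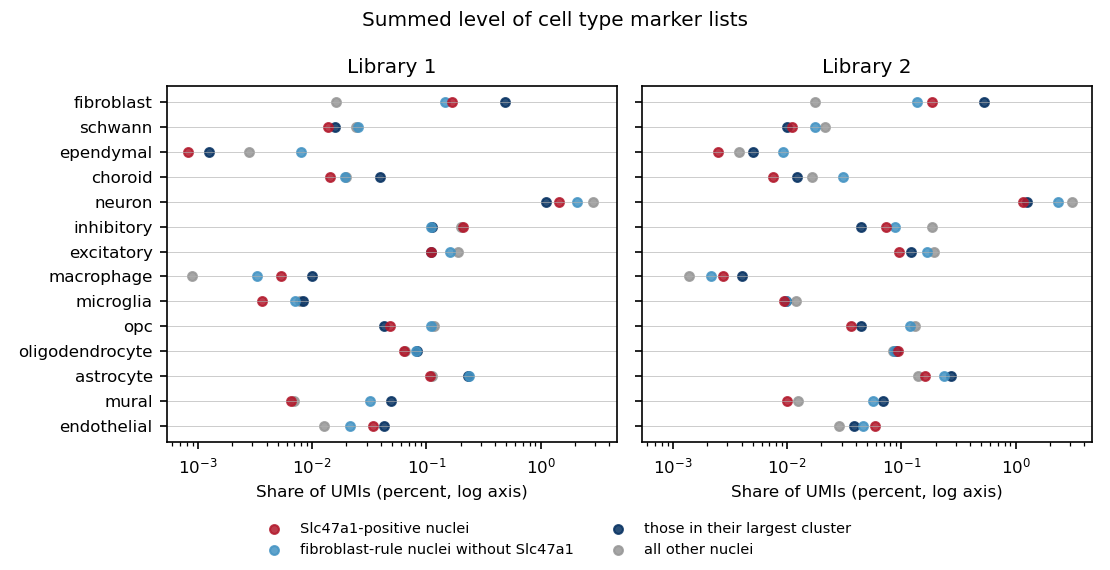
Share of UMIs (percent, log axis) taken by each marker list in 4 classes of nuclei, by library: Slc47a1-positive nuclei, nuclei that meet the same rule without Slc47a1, those of them in their largest cluster, and all other nuclei. Neuron markers take 1.44% and 1.17% in the Slc47a1-positive nuclei against 2.90% and 3.09% in all other nuclei, and fibroblast markers 0.168% and 0.186% against 0.485% and 0.530% in the largest cluster without Slc47a1.

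The members formed a compact set. In a Leiden clustering of all nuclei into 31 clusters, 134 of 140 members (95.7%) fell in 1 cluster of 213 nuclei, 58 of 61 in library 1 and 76 of 79 in library 2. At the finer resolution, with 44 clusters, 133 stayed together in a cluster of 167. The 6 others lay in 5 clusters, and each of them had 1 or 2 Slc47a1 UMIs. Slc47a1 and the genes of the rule took part in this clustering, so the grouping is not independent of the rule.

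For comparison, nuclei that met every condition of the rule but had 0 Slc47a1 UMIs numbered 201 in library 1 and 252 in library 2. They were a mixed set, spread over 30 of 31 clusters, and 270 of the 453 lay outside both their largest cluster and the members' cluster. Their neuron marker share was 2.09% and 2.34%. The largest cluster held 150 of them (69 and 81), and its neuron marker share of 1.11% and 1.26% was close to that of the members. Ratios below are therefore given against all 453 nuclei, and the level in the 150 nuclei of the largest cluster is set beside them as the fibroblast cluster without Slc47a1. A gene is called higher or lower where its ratio was 2-fold or more in the same direction in both libraries, among genes with at least 20 UMIs over both classes in each library. Genes of the rule were left out of these counts.

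Of 8073 genes measured this way, 392 (4.86%) were higher in the members and 369 (4.57%) lower. Without nuclei of doublet scores of 0.2 or more, 589 of 7590 were lower. Against the fibroblast cluster without Slc47a1, 197 of 4806 genes were higher (4.1%) and 233 lower (4.85%). These shares are the backgrounds for the list counts below, each for its own comparison. Against all other nuclei, 854 of 5513 were higher (15.5%) and 287 lower (5.21%). The median log2 ratio over all genes measured was -0.0014 in library 1 and 0.12 in library 2 against the 453 nuclei.

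Carriers of solutes and ions were found at both ends of this comparison. Of 37 listed solute carriers 29 could be measured, and 8 were higher and 10 lower, beside backgrounds of 4.86% and 4.57%, with medians over the 29 of -1.08 and -0.60 on the log2 scale. Against the fibroblast cluster without Slc47a1, 8 of 24 were higher and 8 lower, beside backgrounds of 4.1% and 4.85%. The median over these 24 had the opposite sign, at 0.39 and 0.31. Slc47a2 stood at 139 CPM in library 1 (96.3 to 194) and 139 CPM in library 2 (103 to 183). It was detected in 20 of 61 and 26 of 79 members, while the 453 nuclei without Slc47a1 held 2 and 0 UMIs of it. That is a ratio of 69.9-fold (17.9 to 601) and at least 68.6-fold, the latter against a floor of 3 counts per library sum. After each nucleus was thinned to 1500 UMIs, 18.3 and 15.2% of members had a Slc47a2 UMI, and without thinning 32.8 and 32.9%. In 147 and 139 nuclei chosen by the oligodendrocyte genes Mog and Mobp, with median depths of 1978 and 2700 UMIs, the shares were 0 of 137 and 0 of 136 after thinning. The members had 13.1 and 12.99 Slc47a2 UMIs per 100 Slc47a1 UMIs, and all other barcodes 23.97 and 16.8. The rule requires a Slc47a1 UMI in every member but not in other barcodes, so these ratios cannot be compared. Outside the members 28 and 27 barcodes had Slc47a2, and 5 and 11 of these also had Slc47a1.

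Slc26a7, which encodes an anion exchanger for chloride and bicarbonate, stood at 409 CPM in library 1 (333 to 497) and 421 CPM in library 2 (357 to 494). It was found in 40 of 61 and 53 of 79 members, against 2.98 and 8.07 CPM in nuclei without Slc47a1, a ratio of 137-fold (45.6 to 676) and 52.2-fold (29.01 to 103). Its relative Slc26a2, a sulfate carrier, stood at 229 and 554 CPM against 11.9 and 12.8 CPM. Slc4a10, a sodium-coupled bicarbonate carrier, was detected in 59 of 61 and 76 of 79 members at 3033 CPM in library 1 (2819 to 3259.7) and 4773 CPM in library 2 (4550.4 to 5004), 8.98-fold (7.89 to 10.2) and 12.3-fold (11.2 to 13.5) the level without Slc47a1. Neurons also express Slc4a10. Of the oligodendrocyte nuclei, 32.8 and 29.4% had a UMI of it after thinning, against 88.3 and 94.9% of the members. The part of RNA from other cells in its detection was not tested. These 3 anion and bicarbonate carriers were higher in the members in both libraries, and their intervals did not overlap those of the 453 nuclei without Slc47a1 or of their largest cluster.

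Some carriers of nutrients were also higher. Slc38a2, a carrier of neutral amino acids, stood at 1917 CPM in library 1 (1748 to 2099) and 1776 CPM in library 2 (1641 to 1919) and was detected in 60 of 61 and 76 of 79 members. It was 12.2-fold (10.2 to 14.7) and 13-fold (11.1 to 15.3) as high as without Slc47a1, and 298 and 348 CPM were measured in the fibroblast cluster without Slc47a1. The ascorbate carrier gene Slc23a2 stood at 838 CPM in library 1 (727 to 961) and 1778 CPM in library 2 (1644 to 1922), a ratio of 6.97-fold (5.54 to 8.799) and 17.3-fold (14.5 to 20.8). Slc5a6, which takes up biotin and pantothenate, stood at 127 and 74.8 CPM against 12.9 and 6.73 CPM, and the monocarboxylate carrier family gene Slc16a9 at 127 and 294 CPM against 6.96 and 10.1 CPM. Slc4a4, another sodium bicarbonate cotransporter, was not called, at 597 and 853 CPM against 362 and 396 CPM.

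Carriers outside the list were among the 12 genes with the largest ratios. Slc12a7, a potassium chloride cotransporter, stood at 127 and 163 CPM against 5.96 and 6.05 CPM, a ratio of 21.3-fold and 27-fold. Slc9b2, a sodium proton exchanger, stood at 135 and 177 CPM against 4.97 and 3.36 CPM, 27.1-fold and 52.7-fold. Slco4a1, an organic anion transporting polypeptide, stood at 143 and 69.3 CPM against 6.96 and 2.69 CPM, 20.6-fold and 25.7-fold. Slc47a2 and Slc26a7, described above, were also among those 12.

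**Figure D3:**
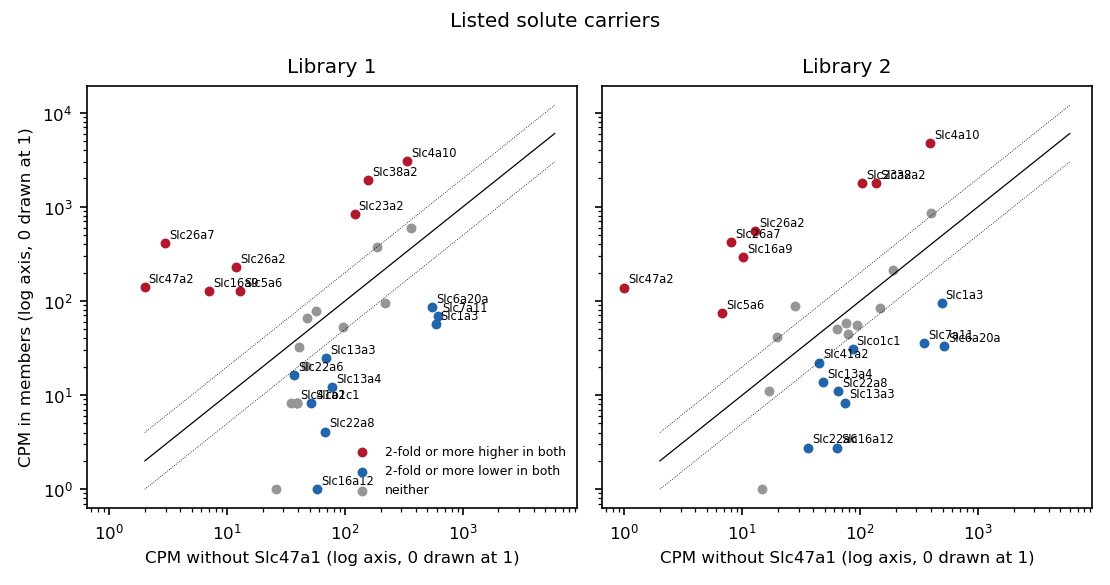
CPM of the 29 measurable listed solute carriers in Slc47a1-positive nuclei (y axis) against nuclei that meet the rule without Slc47a1 (x axis), both on log axes with 0 drawn at 1, by library; the solid line marks equal levels and the dotted lines 2-fold. Red points are the 8 genes higher in both libraries, blue points the 10 lower in both and grey points the others; Slc47a2, Slc26a7 and Slc4a10 lie above the lines and Slc7a11, Slc6a20a and Slc1a3 below.

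Several of the carriers that were lower are known from pial and perivascular fibroblasts or from astrocytes. Slc7a11, the cystine and glutamate exchanger, stood at 69.5 CPM in library 1 (40.5 to 111) and 36.01 CPM in library 2 (19.2 to 61.6) against 620.1 and 348 CPM, and at 2261 and 1368 CPM in the fibroblast cluster without Slc47a1. It was 8.92-fold (5.53 to 15.4) and 9.66-fold (5.597 to 18.3) lower in the members, and 88.2% of its library 1 UMIs came from 1 nucleus. Slc6a20a, a proline carrier, stood at 85.8 and 33.2 CPM against 1934 and 2154 CPM in that cluster, and Slc1a3, a glutamate carrier, at 57.2 and 94.2 CPM against 1387 and 1356 CPM. The organic anion exchangers Slc22a8 and Slc22a6 had 1 and 4 UMIs and 4 and 1 UMIs in the members, against 240.2 and 222 CPM and 149 and 150.3 CPM in the cluster without Slc47a1. Slc13a3, Slc13a4, Slc16a12, Slc41a2 and Slco1c1 were also lower. With 3 of 7 fibroblast genes required, Slc41a2 changed sign in library 2, to a log2 ratio of 0.12. Slc22a6 did so in library 1 with 0 genes of other types allowed, to 0.17. In the fibroblast cluster without Slc47a1, Slc47a2 had 0 UMIs in both libraries. The organic cation exporter was thus detected in the members and not in the cluster, while both organic anion exchangers had higher levels in the cluster.

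Channels and membrane proteins made up part of the remaining genes with large ratios. Kcnk5, a two-pore-domain potassium channel sensitive to extracellular pH, stood at 143 CPM in library 1 (99.7 to 199) and 413 CPM in library 2 (349 to 485) and was found in 23 of 61 and 41 of 79 members. Nuclei without Slc47a1 held 0 and 10 UMIs, a ratio of at least 47.99-fold and 61.4-fold (32.5 to 131), the former against the floor of 3 counts. Piezo2, a mechanically gated cation channel, stood at 269.8 and 366 CPM against 12.9 and 9.42 CPM, a ratio of 20.9-fold (11.4 to 41.3) and 38.8-fold (22.3 to 72.97). Tspan11, a tetraspanin, had the largest ratio by the weaker of the libraries, 115-fold (30.4 to 974) and 97.2-fold (40.5 to 305), with 229 and 327 CPM in 35 of 61 and 52 of 79 members. Car13, a cytosolic carbonic anhydrase, stood at 102 and 133 CPM against 2.98 and 6.73 CPM.

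Further genes of this group were Tll1, a secreted metalloprotease of the tolloid family, at 384 and 410.0 CPM against 14.9 and 10.1 CPM, and Ahnak2, a large scaffold protein, at 85.8 and 108 CPM against 13.9 and 12.8 CPM. A gene annotated as an olfactory receptor, Olfr1033, stood at 176 and 512 CPM in 16 of 61 and 36 of 79 members, against 1.99 and 8.74 CPM. Gm26740, an annotated antisense RNA, stood at 421 and 363 CPM against 13.9 and 8.74 CPM; it overlaps Raet1e and H60b on the other strand, and whether counting used strand is not given in the sources used here. The long noncoding RNA Gm5860 stood at 172 and 227 CPM against 0.917 and 1.05 CPM in all other nuclei. Gm765 stood at 106 and 141 CPM against 3.98 and 2.02 CPM and was found in 11 of 61 and 21 of 79 members. In both libraries, the 12 genes with the largest ratios had member intervals above those of the 453 nuclei and of their largest cluster. They also lay above the intervals of all other nuclei. The 12 were ranked by their ratio to the 453 nuclei, which include that cluster, so the gap to these follows from the selection.

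**Figure D4:**
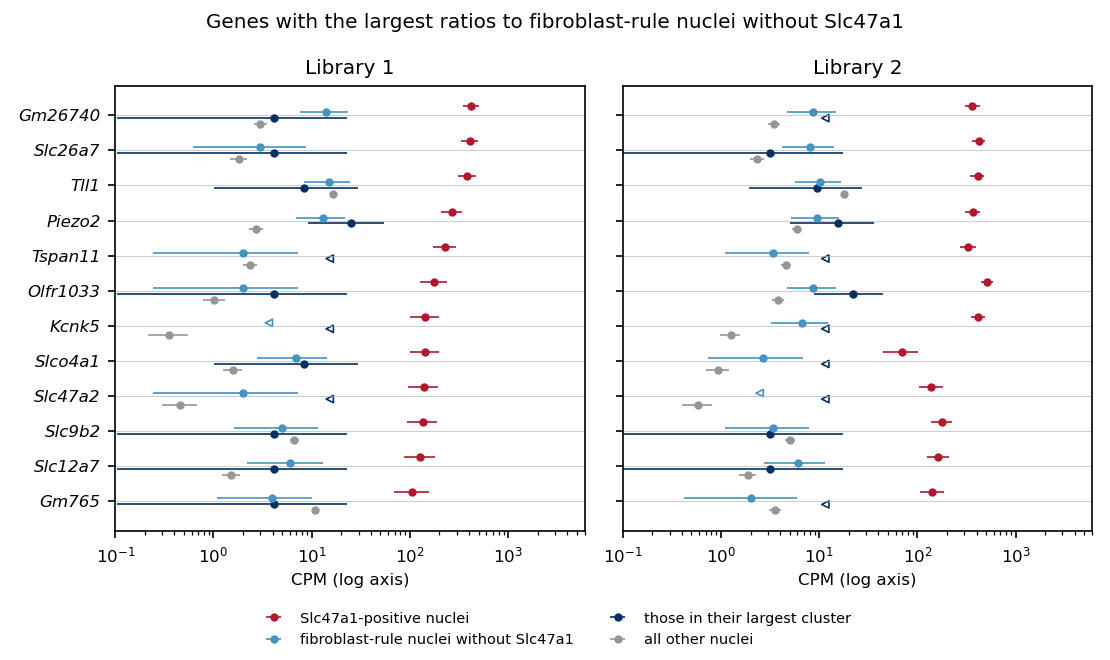
CPM (log axis) of the 12 genes with the largest ratios of Slc47a1-positive nuclei to nuclei that meet the rule without Slc47a1, by library, in 4 classes; points are levels, bars are exact 95% Poisson intervals, and open triangles mark the upper limit of a level of 0. The red points of the Slc47a1-positive nuclei, between 69.3 and 512 CPM, lie to the right of the other 3 classes drawn.

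ABC transporters and genes of the arachnoid barrier were next. Of 13 listed arachnoid barrier genes 8 could be measured, and 5 were higher and 0 lower, beside backgrounds of 4.86% and 4.57%. The list median log2 ratio was 1.97 and 2.20. Those higher were the multidrug exporters Abcg2, Abcb1a and Abcc4, E-cadherin (Cdh1) and the transcription factor Klf5. Against the fibroblast cluster without Slc47a1, the same 5 of 7 measured were higher and Ptgds was lower, beside 4.1% and 4.85%. Abcc4, which exports organic anions and cyclic nucleotides, stood at 401 CPM in library 1 (325 to 488) and 435 CPM in library 2 (369.6 to 509) and was 5.599-fold (4.09 to 7.699) and 8.29-fold (6.28 to 11.02) as high as without Slc47a1. Abcg2 stood at 327 CPM in library 1 (259 to 407) and 213 CPM in library 2 (168 to 267), 8.89-fold (5.95 to 13.5) and 5.47-fold (3.84 to 7.83) as high, and Abcb1a, the gene of P-glycoprotein, at 241 CPM in library 1 (184 to 311) and 335 CPM in library 2 (278 to 401), 6.56-fold (4.28 to 10.2) and 5.14-fold (3.901 to 6.78) as high. Endothelium also expresses Abcb1a and Abcg2. The other 9 endothelial markers took 0.0102% and 0.0258% of member UMIs, against 0.0180% and 0.0398% in nuclei without Slc47a1, and the part of endothelial RNA in these levels was not tested. Cdh1 was found in 19 of 61 and 24 of 79 members at 123 and 161 CPM, against 23.9 and 22.2 CPM.

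Other barrier genes were not called. Dpp4 had 6 and 38 UMIs and Cldn11, a claudin of the arachnoid barrier, 17 and 40 UMIs in the members, and the keratin genes Krt8 and Krt18 and the desmosomal genes Jup and Dsp had too few counts to be measured. Ptgds, which makes prostaglandin D2, stood at 94.02 and 186 CPM against 2833 and 1118 CPM in the fibroblast cluster without Slc47a1. Over 18 listed ABC transporters, 14 could be measured, 5 were higher and 1 lower, beside 4.86% and 4.57% over all genes. Abca1, a cholesterol exporter, was among those higher, at 147 and 186 CPM against 59.6 and 75.3 CPM, though 57.98 and 172 CPM in the fibroblast cluster without Slc47a1. Abca4, a retinoid flippase, was the lower one, with 1 and 1 UMIs in the members.

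A second set of nuclei bears on the barrier genes. The members' cluster also held 33 nuclei (15 and 18) that met the rule with 0 Slc47a1 UMIs. Their depth was like that of the members, with medians of 3023 and 3446 UMIs. They had 0 Slc47a2 UMIs in both libraries, and Adamtsl3 stood at 234 CPM in library 1 (121 to 408) and 119 CPM in library 2 (51.4 to 235). Tjp1, a tight junction scaffold, stood in them at 1637 CPM in library 1 (1306 to 2027) and 2128 CPM in library 2 (1794 to 2507), compared with 380.2 CPM in library 1 (307 to 466) and 296 CPM in library 2 (243 to 358) in the members. Dpp4 stood at 1111 and 1265 CPM compared with 24.5 and 105 CPM, Cldn11 at 409 and 551 CPM compared with 69.5 and 111 CPM, and Cdh1 at 351 and 417 CPM compared with 123 and 161 CPM. Fibronectin (Fn1) stood at 1111 and 1548 CPM compared with 245 and 496 CPM, and Klf4 at 253 and 342 CPM compared with 65.4 and 66.5 CPM. Bnc2 (1968 and 2529.9 CPM), Foxp2 (1325 and 1473 CPM) and Abcb1a (331 and 625 CPM) were nearer to the members' levels. At the finer resolution 28 of the 33 left for another cluster and 5 stayed with the members. Over the whole lists, 13 of 31 junction genes could be measured between these sets; 5 were lower in the members (Cdh1, Cdh13, Cldn11 and Tjp1 among them), Cdh11 was higher and 7 were not called. Of 8 measured arachnoid barrier genes, 4 were lower (Cdh1, Cldn11, Dpp4 and Ptgds), Abcc4 was higher and 3 were not called. The background was 4.67% higher and 2.5% lower of 3123 genes. Slc47a2, Slc26a7 (19.5 and 104 CPM in the 33 nuclei) and Adamtsl3, a gene of the rule, were higher in the members. Slc47a1 separates the sets by definition. Several genes with large ratios did not part these nuclei from the members: the intervals of Slc12a7, Slco4a1 and Car13 overlapped in both libraries, and Ahnak2 stood at 214 and 253 CPM in the 33 nuclei compared with 85.8 and 108 CPM in the members. These nuclei were separated by Slc47a1 counts and by clustering on the same genes, so this is a description.

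Of 38 listed transcription factors, 21 could be measured, 7 were higher (Foxd1, Foxp1, Foxp2, Tbx15, Zic4, Prrx1 and Eya2), Runx1t1 was lower and 13 were not called. Over all genes, 4.86% were higher and 4.57% lower. Against the fibroblast cluster without Slc47a1, Foxp1, Foxp2, Tbx15 and Eya2 were higher, Ebf2 and Runx1t1 lower and 14 of 20 not called. The backgrounds there were 4.1% higher and 4.85% lower, and the list medians were -0.78 and -0.29 on the log2 scale. Zic4 had ratios under 1 in that comparison in both libraries. Foxp1, a forkhead repressor, was found in 61 of 61 and 75 of 79 members at 1795 CPM in library 1 (1631 to 1971) and 2449 CPM in library 2 (2290.1 to 2616), 3.51-fold (3.08 to 3.99) and 5.43-fold (4.902 to 6.01) as high as without Slc47a1. Foxp2, its relative, was found in 58 of 61 and 75 of 79 members at 1786 CPM in library 1 (1623 to 1962) and 2421 CPM in library 2 (2263 to 2587), 8.25-fold (6.99 to 9.75) and 13.6-fold (11.8 to 15.6) as high.

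Eya2, a phosphatase that acts as a transcription coactivator, was found in 58 of 61 and 72 of 79 members at 1145 CPM in library 1 (1014 to 1287) and 1329.7 CPM in library 2 (1213 to 1454), 9.29-fold (7.49 to 11.6) and 11.4-fold (9.53 to 13.6) as high. Tbx15, a T-box factor of mesenchyme, was found in 48 of 61 and 67 of 79 members at 486 CPM in library 1 (403 to 582) and 726 CPM in library 2 (641 to 819), 7.77-fold (5.68 to 10.7) and 14.01-fold (10.8 to 18.3) as high. After thinning, 80.0 and 79.7% of members and 0 and 2.21% of oligodendrocyte nuclei had an Eya2 UMI, and 85 and 92.4% and 9.49 and 6.62% a Foxp2 UMI. Foxd1 stood at 213 and 205 CPM, against 157 and 78.3 CPM in the fibroblast cluster without Slc47a1. The pan-meningeal factors Foxc1 and Zic1 were not called; Foxc1 stood at 57.2 and 55.4 CPM and Zic1 at 179.9 and 91.4 CPM.

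Interstitial matrix genes were higher in part. Of 24 listed, 16 could be measured, 8 were higher and Eln was lower, though Eln had log2 ratios of 2.50 and 0.23 with a mitochondrial limit of 1%. The backgrounds were 4.86% higher and 4.57% lower, and the list median log2 ratio was 1.00 and 1.47. The 8 were Col5a2, Col6a1, Col6a2, Col12a1, Fn1, Ogn, Mgp and Fbln1, though Col5a2 in library 2 and Ogn in library 1 were lower than in the fibroblast cluster without Slc47a1. Mgp, an inhibitor of calcification, stood at 515 CPM in library 1 (429 to 613) and 717 CPM in library 2 (633 to 810.4), 13.6-fold (9.42 to 20.2) and 9.44-fold (7.54 to 11.9) as high as without Slc47a1. Col12a1, a collagen that binds fibrils, stood at 208 and 341 CPM against 33.8 and 26.9 CPM, and Fn1 at 245 and 496 CPM against 71.6 and 106 CPM. Fbln1 stood at 81.8 and 235 CPM against 20.9 and 29.6 CPM, with 62.1 and 78.3 CPM in the fibroblast cluster without Slc47a1. Set against that cluster, 5 of 14 were higher and 3 lower, beside backgrounds of 4.1% and 4.85%. Col1a1 was not called, at 36.8 and 85.9 CPM against 62.1 and 182 CPM there.

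Of 19 listed basement membrane genes, 12 could be measured, 1 was higher (Lamb2), 5 were lower (Lama1, Lamb1, Lamc3, Col4a5 and Col4a6) and 6 were not called. The backgrounds were 4.86% higher and 4.57% lower, and the list median log2 ratio was -0.40 and -0.68. Relative to the fibroblast cluster without Slc47a1, 0 of 10 were higher and 5 lower (Lama1, Lama4, Lamc3, Col4a5 and Col4a6), beside backgrounds of 4.1% and 4.85%. Lamb1 changed sign in both libraries after thinning, to log2 ratios of 0.72 and 0.077, and Lamc3 in library 1 with 0 genes of other types allowed, to 0.58. Col4a5 and Col4a6 encode paired chains of collagen IV. Col4a6 had 1 and 0 UMIs in the members and stood at 427 and 382 CPM in the fibroblast cluster without Slc47a1. Col4a5 had 1 and 4 UMIs and stood at 439 and 382 CPM there. Lama1, the laminin chain of the pial surface, had 8 and 4 UMIs in 2 of 61 and 1 of 79 members, against 659 and 629 CPM. Lamc1, shared by most laminins, was not called, at 143 and 116 CPM against 133 and 147 CPM.

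Of 10 listed genes of pial and perivascular fibroblasts, 5 could be measured, 0 were higher and 3 lower (Lama1, Cemip and Pdgfra), beside backgrounds of 4.86% and 4.57%. The other 2, Spp1 and Itih5, were not called. Beside the fibroblast cluster without Slc47a1, 4 of 5 were lower (Lama1, Itih5, Cemip and Pdgfra) and 0 higher. The backgrounds there were 4.85% lower and 4.1% higher. Spp1, osteopontin, stood at 16.4 and 63.7 CPM against 29.8 and 24.9 CPM in nuclei without Slc47a1 and 3.14 and 4.91 CPM in all other nuclei. Itih5 stood at 40.9 and 52.6 CPM against 79.5 and 134 CPM and 9.91 and 18.3 CPM. Cemip, which breaks down hyaluronan, stood at 32.7 and 33.2 CPM against 659 and 861 CPM in the fibroblast cluster without Slc47a1. Ranbp3l stood at 49.1 CPM in library 1 (25.3 to 85.7) and 30.5 CPM in library 2 (15.2 to 54.5), with its UMIs in 3 of 61 and 3 of 79 members, against 2029 and 2026 CPM. Colec12, a scavenger receptor, stood at 28.6 and 36.01 CPM against 1184 and 1221 CPM.

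Further genes with the smallest ratios encode receptors and adhesion proteins. Itga1, an integrin chain that binds collagen, had 1 and 1 UMIs, and Itga6, one that binds laminin, 1 and 1 UMIs. The leptin receptor gene Lepr had 2 and 3 UMIs and stood at 306 and 323 CPM in the cluster without Slc47a1; Lef1, a factor of Wnt signalling, had 1 and 2 UMIs and stood at 137 and 150.3 CPM. Arhgap24 had 2 and 1 UMIs, against 555 and 225 CPM. Atp13a5, a P-type ATPase known from brain pericytes of the mouse, had 1 and 0 UMIs, against 265 and 310.0 CPM. These 6 genes had 0 to 3 UMIs in the members of each library.

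**Figure D5:**
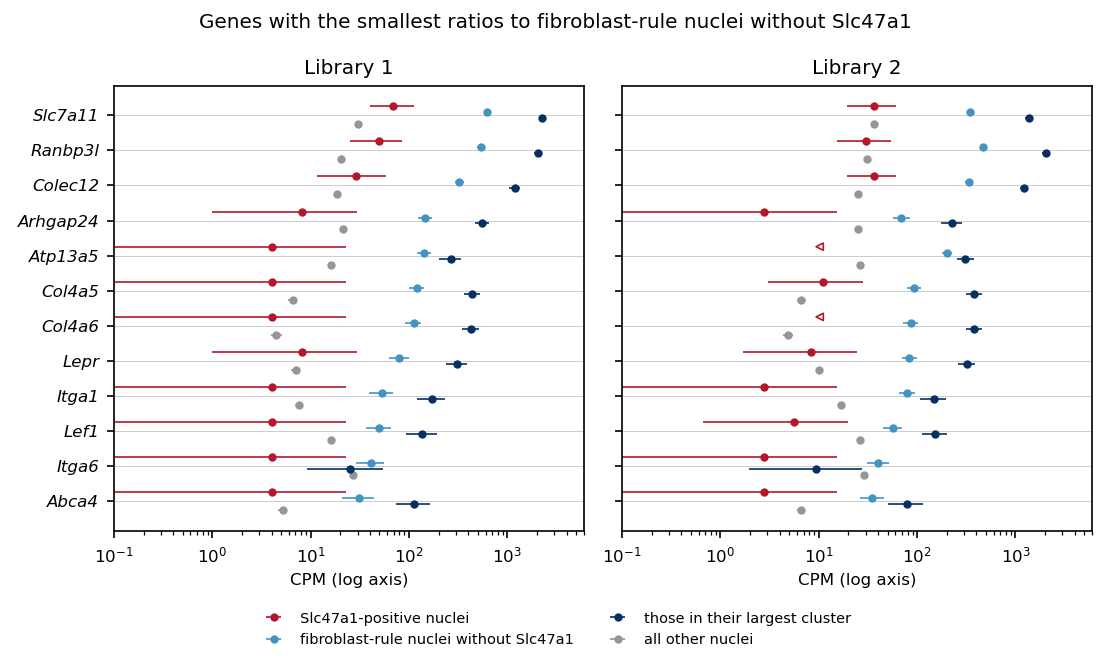
CPM (log axis) of the 12 genes with the smallest ratios of Slc47a1-positive nuclei to nuclei that meet the rule without Slc47a1, by library, in 4 classes; points are levels, bars are exact 95% Poisson intervals that may run past the left edge, and open triangles mark the upper limit of a level of 0. Ranbp3l, Slc7a11 and Colec12 exceed 1000 CPM in the largest cluster without Slc47a1 and stay under 70 CPM in the Slc47a1-positive nuclei.

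Of 6 genes that mark meningeal layers in the mouse, 3 could be measured. Fxyd5, a regulator of the sodium pump, and Foxp1 were higher, Aldh1a2 was lower, and S100a6, Crabp2 and Ngfr could not be measured. Over all genes, 4.86% were higher and 4.57% lower. Fxyd5 stood at 123 and 108 CPM against 11.9 and 16.1 CPM, in 21 of 61 and 28 of 79 members. Crabp2 had 1 and 3 UMIs and S100a6 2 and 2 UMIs. Aldh1a2, the enzyme that makes retinoic acid in meninges, had 0 and 1 UMIs in the members, against 248 and 207 CPM in the fibroblast cluster without Slc47a1.

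Of 6 retinoid genes measured, Aldh1a2 included, 3 were higher, the receptor genes Rarb and Rarg among them, beside a background of 4.86%. Rarb was not called higher against the fibroblast cluster without Slc47a1, for which Rarg had too few counts, and stood at 203 and 282 CPM there beside 253 and 316 CPM in the members. Rarb overlaps Top2b on the other strand. Aldh1a1, a second retinaldehyde dehydrogenase, was not called against the 453 nuclei, at 164 and 77.6 CPM against 104 and 80.7 CPM. Set against the fibroblast cluster without Slc47a1, 0 of 4 measured retinoid genes were higher and 2 were lower, Aldh1a1 and Aldh1a2. The backgrounds there were 4.1% higher and 4.85% lower.

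Secreted signals differed gene by gene. Of 50 listed, 28 could be measured, 8 were higher (Bmp4, Bmp5, Rspo3, Igfbp5, Igfbp6, Slit2, Sema3a and Ntn1) and 2 lower (Rspo2 and Reln). Backgrounds were 4.86% and 4.57%. In the comparison with the fibroblast cluster without Slc47a1, 8 of 19 were higher, with Slit3 in place of Sema3a. There 6 were lower (Bmp6, Bmp7, Rspo2, Igfbp2, Ptn and Ptgds), and the backgrounds were 4.1% higher and 4.85% lower. Slit2, a ligand of Robo receptors, was found in 52 of 61 and 74 of 79 members at 1120.1 CPM in library 1 (991 to 1261) and 1526 CPM in library 2 (1402 to 1659), 4.92-fold (4.11 to 5.89) and 7.03-fold (6.11 to 8.09) as high as without Slc47a1. Rspo3, which strengthens Wnt signalling, stood at 442 and 413 CPM against 43.7 and 39.01 CPM, whereas its relative Rspo2 stood at 24.5 and 19.4 CPM against 93.4 and 85.4 CPM. Igfbp5, which binds insulin-like growth factors, stood at 413 and 582 CPM, 6.92-fold (4.98 to 9.697) and 11.8-fold (9.04 to 15.7) as high.

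The bone morphogenetic protein gene Bmp5 stood at 229 and 374 CPM against 45.7 and 39.7 CPM, in 35 of 61 and 51 of 79 members. Bmp4 stood at 155 and 41.6 CPM against 6.96 and 12.8 CPM. Sema3a, a repulsive guidance signal, stood at 303 and 604 CPM against 142 and 139 CPM, but at 439 and 369 CPM in the fibroblast cluster without Slc47a1. Slit3 was not called against the 453 nuclei, at 458 and 1072 CPM against 791 and 992 CPM, but was higher than in the fibroblast cluster without Slc47a1. Slit2, Rspo3, Igfbp5 and Bmp5 had values above the counting intervals of both comparison classes in each library.

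Among receptors, 31 of 41 listed could be measured, 9 were higher (Egfr, Ror1, Tgfbr1, Tgfbr3, Fzd2, Lrp5, Ednra, Cdon and Boc) and 5 lower (Pdgfra, Fgfr3, Ror2, Lepr and Ptch1). Backgrounds were 4.86% and 4.57%. Egfr, the epidermal growth factor receptor, was found in 52 of 61 and 61 of 79 members at 625 CPM in library 1 (530.3 to 733) and 934 CPM in library 2 (837 to 1039), 5.38-fold (4.201 to 6.903) and 10.7-fold (8.695 to 13.2) as high. Cdon and Boc, co-receptors of hedgehog, stood at 159 and 296 CPM and 147 and 211 CPM, against 41.7 and 39.7 CPM and 58.6 and 41.7 CPM. The hedgehog receptor gene Ptch1 had 2 and 6 UMIs. Ror1 stood at 507 and 501 CPM against 192 and 211 CPM and at 410.0 and 501 CPM in the fibroblast cluster without Slc47a1, and its relative Ror2 had 0 and 2 UMIs, against 282 and 204 CPM. Tgfbr3 stood at 486 and 639.9 CPM, beside 592 and 517 CPM in that cluster. Against it only Egfr, Ednra and Cdon were higher, of 26 receptors measured, and 6 were lower, beside backgrounds of 4.1% and 4.85%.

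Junction genes were mostly not called, with 3 of 21 higher (Cdh1, Cdh11 and Gjb2) and 3 lower (Cdh13, Pkp2 and Ctnna3). Over all genes, 4.86% were higher and 4.57% lower. Against the fibroblast cluster without Slc47a1 the ratios of Gjb2 and Cdh13 changed sign on the log2 scale in both libraries. Cdh11, the cadherin of mesenchyme, stood at 478 and 657 CPM against 231 and 317 CPM. Gja1, the gene of connexin 43 and one of the genes of the study's title, stood at 81.8 CPM in library 1 (49.9 to 126) and 368 CPM in library 2 (308 to 437), in 16 of 61 and 47 of 79 members. Nuclei without Slc47a1 had 78.5 and 72.6 CPM, so that Gja1 exceeded 2-fold in library 2 alone. Cdh5, the gene of VE-cadherin, stood at 44.97 CPM in library 1 (22.4 to 80.5) and 58.2 CPM in library 2 (36.01 to 88.9), in 10 of 61 and 17 of 79 members, and at 82.8 and 46.97 CPM in the fibroblast cluster without Slc47a1. Its detection after thinning was 5.0 and 7.59% of members and 2.19 and 0% of oligodendrocyte nuclei. Cdh5 was thus seen in a minority of members in both libraries. Cldn5 had 0 and 8 UMIs in the members; Flt1, which had 0 and 25 UMIs, is limited by the rule itself.

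Of 15 measured immune genes Stat3 was higher and Vcam1 lower, shares near the backgrounds of 4.86% and 4.57%. Stat3 overlaps Stat5a on the other strand, and stood at 172 and 147 CPM against 53.7 and 71.3 CPM and 82.8 and 175 CPM in the fibroblast cluster without Slc47a1. Immediate early genes, which respond to handling as well as to activity, gave 2 higher (Dusp1 and Klf4) and 0 lower of 13. Klf4 had a reversed ratio in library 2 when 3 of 7 fibroblast genes were required or 0 genes of other types allowed. Against the fibroblast cluster without Slc47a1, 0 of 10 were higher and Egr1, Fos and Btg2 were lower, beside backgrounds of 4.1% and 4.85%. Egr1 stood at 106 and 80.3 CPM against 514 and 269 CPM there. Among genes of metals, redox and lipids, Ptgis and Aox1 were higher and Cp, Apod, Pltp and Aox3 lower, of 14 measured; with a mitochondrial limit of 1% the log2 ratio of Pltp was 1.17 and 0.23. Against the fibroblast cluster without Slc47a1, 2 of 9 were higher and 4 lower, beside backgrounds of 4.1% and 4.85%. Aox1, an aldehyde oxidase, stood at 192 and 158 CPM against 27.8 and 19.5 CPM, while its neighbour in the family, Aox3, had 2 and 4 UMIs. Ptgis, prostacyclin synthase, stood at 131 and 88.6 CPM against 8.94 and 23.5 CPM. Apod, a lipocalin that carries lipids, stood at 89.9 and 141 CPM against 770.3 and 999 CPM in the fibroblast cluster without Slc47a1, and ceruloplasmin (Cp), a copper ferroxidase, at 44.97 and 49.9 CPM against 1056 and 974 CPM.

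The levels of the 2 libraries are given side by side, with no age attached. Of 5523 genes with at least 20 UMIs over all members, 228 (4.13%) had Poisson intervals that lay higher in library 2 without overlap and 225 (4.07%) intervals that lay higher in library 1. Of 84 genes taken by the naming rules that had that many UMIs, 27 lay higher in library 2, 2 in library 1 and 55 overlapped; these rules took list genes for their high CPM, and intervals narrow with counts. Those higher in library 2 included Bnc2, Slc4a10, Foxp1, Foxp2, Tbx15, Egfr, Slit2, Slit3, Mgp, Igfbp5, Fn1, Col12a1, Bmp5, Sema3a and Cdh11. Slc47a1 was 1063 and 1067 CPM, and Slc47a2 and Slc26a7 were likewise close. Dcn stood at 28.6 CPM in library 1 (11.5 to 58.96) and 166 CPM in library 2 (127 to 214), and Gja1 and Kcnk5 at the levels given above, all 3 higher in library 2. With the deepest member of each library left out, Dcn was 35.2 and 179 CPM, Gja1 90.6 and 396 CPM and Kcnk5 156 and 444 CPM. Slc23a2 and Olfr1033 also lay higher in library 2, whereas Bmp4 lay higher in library 1 at 155 CPM in library 1 (109.9 to 213) and 41.6 CPM in library 2 (23.3 to 68.5). Of the general neuron markers, Snap25, Syt1, Kcnip4 and Meg3 lay higher in library 1 and Grin2a in library 2. Adarb2 (883 and 269 CPM) and Erbb4 (1030 and 344 CPM), of inhibitory neurons, lay higher in library 1, and Malat1 (36383 and 57020 CPM) in library 2. Most of the members' Adarb2 UMIs in library 1 came from the deepest nucleus, as stated above, so the Adarb2 difference is not a level shared by the members. Levels without the deepest members are given for Dcn, Gja1 and Kcnk5 only, and the part of RNA of other types was not tested. Members of library 2 were deeper per nucleus, with medians of 3398 and 2819 UMIs, and mice, age and library preparation cannot be told apart here.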

How the data were processed

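The authors deposited unnormalized UMI counts for each gene in each barcode, and per the file headers these come from Cell Ranger 3.1.0. The submitters' processing notes name the build mm10 and list R 4.0.2, Seurat 3.1 and Cell Ranger 2.0.1, a conflict that was not settled. Not given in the sources used here are the annotation, how intronic reads and strand were counted, and how cells were called. Positions come from GENCODE vM21 (mm10), which holds 30843 of the 30905 gene IDs, and may differ from the annotation behind the counts. The promoter sequence is from RefSeq (GRCm38.p6), which was searched for Slc47a1 and Slc47a2; 1 of them matched.

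UMIs of all nuclei of a class in 1 library were summed and scaled to 1000000 (CPM). Intervals are exact 95% Poisson intervals for CPM, exact conditional binomial intervals for ratios and exact Clopper-Pearson intervals for shares. No test was made, since nuclei are not replicates and the suffixes carry no age. A level of 0 was replaced by a floor of 3 counts per library sum for a ratio, and a ratio with both sums at 3 counts or fewer was not formed. Scrublet scores and Leiden clusters (2000 variable genes, 30 components, 15 neighbours, resolutions 1 and 2, seed 1) came from scanpy 1.11.5, over barcodes with at least 200 genes and at most 5% mitochondrial UMIs. No barcode was removed as a doublet in the values of the report. Fewer than 30905 genes enter a count because of the minimum of 20 UMIs: a gene can pass through its high class alone.

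The genes named are those of the rule, the 12 with the largest and the 12 with the smallest ratio to nuclei without Slc47a1 and the 12 with the largest ratio to all other nuclei, each ranked by the less extreme library, from each list the 4 genes of highest CPM, and Gja1 and Cdh5. A gene that this rule names is not reported here. Other named genes are list or marker members chosen after their values were seen, as were the 33 nuclei without Slc47a1 in the members' cluster. The members and lists were chosen with earlier results of these data known. The calculations were tested on simulated counts. The alternatives tried were other limits of the rule, doublets left out, equal weights, thinning, other minimum counts and folds, and other comparison nuclei.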

Additional observations from a re-analysis of the deposited data

How the results depend on the processing

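No paired analysis was possible because each library is 1 pooled sample and the labels carry no replicate numbers. The share of barcodes that were members fell to 0.224% and 0.326% with a mitochondrial limit of 1%, to 0.303% and 0.338% with 0 genes of other types allowed, and to 0.710% in library 2 with at least 2 Slc47a1 UMIs. The 392 genes higher than without Slc47a1 of 8073 measured became 177 of 5058 with 3 of 7 fibroblast genes required, 155 of 2933 with 0 genes of other types, 209 of 3922 after thinning to 1500 UMIs and 853 of 8073 at 1.5-fold, and were 197 of 4806 against the fibroblast cluster without Slc47a1. The 369 genes lower became 183 of 5580 with the 1% limit, 183 of 5058 with 3 of 7 fibroblast genes, 214 of 2933 with 0 genes of other types, 589 of 7590 with doublet scores of 0.2 or more left out and 884 of 8073 at 1.5-fold, and were 233 of 4806 against that cluster. Over all lists 59 of 226 measured genes were higher and 35 lower. The higher ones became 38 of 150 with the 1% limit, 31 of 180 with 3 of 7 genes, 28 of 110 with 0 genes of other types, 36 of 175 against the cluster and 29 of 142 after thinning, and the lower ones 17 of 150, 22 of 110 and 53 of 226 with the 1% limit, with 0 genes of other types and at 1.5-fold. Several of these settings measure fewer genes or nuclei; the cause was otherwise not tested. The share of members with a Slc47a2 UMI was 32.8% and 32.9% without thinning and 18.3% and 15.2% with it.

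For 114 named or listed genes called in the report, 3363 log2 ratios under alternatives were formed: 2714 stayed within the counting interval of the reported ratio, 600 moved outside it in the same direction or from an uncalled library, and 49 changed sign. With a mitochondrial limit of 1% these were 1.17 for Pltp, 2.50 for Eln and 0.0038 for Lamb1 in library 1, and 0.047 for Itga6, 0.23 for Pltp, 0.23 for Eln and -0.26 for Rarg in library 2. With 3 of 7 fibroblast genes required these were -0.16 for Sema3a, 0.014 for Fgfr3, 0.042 for Cdh13 and -0.11 for Zic4 in library 1, and -0.12 for Col5a2, -0.22 for Klf4, -0.016 for Ror1, 0.12 for Slc41a2, -0.014 for Gjb2, -0.089 for Zic4 and -0.38 for Stat3 in library 2. With 0 genes of other types allowed these were 0.58 for Lamc3, 0.17 for Abca4, -0.42 for Rarg and 0.17 for Slc22a6 in library 1, and -0.17 for Col5a2, 0.42 for Itga6, -0.13 for Tgfbr1, -0.37 for Klf4, 0.15 for Eln, -0.10 for Rarb and -0.46 for Stat3 in library 2. Against the fibroblast cluster without Slc47a1 these were -0.019 for Prrx1, -0.54 for Sema3a, -0.28 for Tgfbr3, 0.32 for Cdh13, -0.41 for Gjb2, -0.71 for Zic4, -0.60 for Ogn, 0.40 for Pkp2 and -0.17 for Lrp5 in library 1, and -0.15 for Col5a2, -0.039 for Tgfbr1, 0.75 for Cdh13, -0.25 for Gjb2, -0.32 for Zic4, -0.26 for Stat3 and -0.26 for Abca9 in library 2. After thinning to 1500 UMIs these were 0.72 for Lamb1 and -0.022 for Lrp5 in library 1, and 0.077 for Fgfr3 and 0.077 for Lamb1 in library 2. The cause was not tested. The comparison cluster, the members of 1 cluster and the deepest member left out were chosen after the data were seen. Depth limits genes with few UMIs: ratios against a count of 0 in the members use a floor of 3 UMIs of 244617 or 360981.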
